A study of Mus musculus with 4 samples.

Results

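Histone cluster transcripts were followed through single-cell libraries of the embryonic mouse hindlimb. The members are the genes whose symbol starts with Hist1h, Hist2h, Hist3h or Hist4h and that held at least 20 UMIs (unique molecular identifiers, which tag captured RNA molecules) over the 4 libraries. Of 68 gene symbols of that form, 60 met this, out of 21836 gene entries with a UMI. The hindlimbs came from C57BL/6 embryos, with no treatment and no genetic change given in the labels, and the stages were embryonic day (E) 11.5, the time of limb bud formation, E13.5, when cartilage condenses, then E15.5, at joint cavitation, and finally E18.5, during joint morphogenesis. Each stage is a single library of cells pooled from 1 litter, made from tissue treated with collagenase and pronase; the cells had been stored frozen, and dead ones were removed after thawing. A difference between stages therefore has no replicate check, whereas a difference between classes of cells inside each library was repeated in all 4 libraries.

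Histones package DNA: the core histones H2A, H2B, H3 and H4 form the nucleosome, and the linker histone H1 binds where DNA enters and leaves it. The clustered genes are known as replication-dependent, because their mRNAs accumulate when DNA is copied in S phase. Such mRNAs normally carry no poly(A) tail and end just after a short stem-loop bound by the protein SLBP, although some of these genes are known to give polyadenylated mRNAs in differentiated cells. A 3' droplet kit primes reverse transcription with oligo-dT, so it captures polyadenylated RNA or RNA with internal runs of A. The UMIs below count captured molecules, and the capture efficiency of each transcript is not known.

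The members comprised 5 H1 genes, 16 H2A genes, 15 H2B genes, 11 H3 genes and 13 H4 genes. In GENCODE vM21 on GRCm38, 58 of them were found, 47 on chromosome 13, 8 on chromosome 3, 2 on chromosome 11 and 1 on chromosome 6. The annotation calls 56 protein-coding, Hist1h2al a processed pseudogene and Hist2h2bb a lincRNA, and it did not hold the identifiers of Hist1h2bm and Hist1h2bh. The 8 genes below the minimum were Hist1h2ah with 17 UMIs, the testis-specific linker histone Hist1h1t with 8, Hist1h2aa with 1, and Hist2h2aa1, Hist2h3c1, Hist1h2bq, Hist1h2br and Hist1h2ba with 0. Just inside the minimum were Hist1h4m with 23 UMIs and Hist2h2ab with 25.

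The 3' ends below are shown because they carry the stem-loop that sets this gene family apart and the bases that an oligo-dT primer could meet. Each line is a stretch of 30 nt of the GENCODE vM21 transcript, 5' to 3', and the capitals mark the stem-loop of 6 paired bases around a loop of 4.
Hist1h2ap: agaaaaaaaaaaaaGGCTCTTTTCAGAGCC
Hist1h2ae: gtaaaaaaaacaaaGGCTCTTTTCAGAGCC
Hist1h2ag: tgatcgccaacaaaGGCTCTTTTCAGAGCC
Hist3h2a: ttacagacaccaaaGGCTCTTTTCAGAGCC
Hist1h1c: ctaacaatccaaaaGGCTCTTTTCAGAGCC
Hist1h1e: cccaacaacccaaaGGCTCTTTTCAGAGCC
Hist1h3c: gctatttaaaaaaaGGCTCTTTTAAGAGCC
Hist1h4i: caatgctacttaaaGGCCCTTTTTAGGGCC

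A stem-loop of this form that opens with GG was found in the 3' UTR of the longest annotated transcript of 40 of the 58 members and not in that of 18, of which Hist1h2bp has it in a shorter transcript. Some of the 18, such as Hist1h1b and Hist1h2ak, have an annotated 3' UTR of 0 nt. Hist1h2al and Hist2h2bb have no annotated coding part. For such members there was no 3' UTR to search, so a stem-loop is not shown to be absent. The most frequent form outside H4, with the stem in capitals, was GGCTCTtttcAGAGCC, found in 3 H1, 9 H2A, 6 H2B and 4 H3 members. The most frequent form in H4 was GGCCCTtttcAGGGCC, found in 7 H4 members and in no other type. Hist1h2ap and Hist1h2ao had 12 A bases directly before the stem-loop, and Hist1h2ae had 8, ending 4 nt before it. A run of at least 8 A was present in the transcripts of 7 members. The annotated transcript went on for 3 nt after the stem-loop in Hist1h2ap, 23 nt in Hist1h2ag, 151 nt in Hist1h2ae, 330 nt in Hist1h4i, 840 nt in Hist1h1c, 1153 nt in Hist1h1e and 1643 nt in Hist3h2a. Hist1h2bc had no stem-loop but a 3' UTR of 742 nt with the polyadenylation signal AATAAA.

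Near-identical copies and overlapping annotations limit how far a count belongs to a single gene. For 6 members every 90-base stretch of the last 300 nt was shared with another histone gene, and for 21 none was. Hist1h2ap shares its stretches with 14 other genes, so the UMIs listed under it are those that the authors' counting placed there and may come partly from other H2A genes. Hist1h1e (chr13:23620629-23622558) and Hist1h2be (chr13:23583670-23621124) overlap on the minus strand. The last 300 nt of Hist1h1e thus also lie in the annotated Hist1h2be and are not a copy. The last 300 nt of Hist1h3e are shared with Hist1h3f. Hist1h1c, Hist1h2bc, Hist1h4i and Hist3h2a shared none in theirs.

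The members held 106497 UMIs in all deposited barcodes, and H2A took most of them. H2A genes had 62333 UMIs (58.5%), H1 genes 17356 (16.3%), H2B genes 16722 (15.7%), H4 genes 7545 (7.08%) and H3 genes 2541 (2.39%). Hist1h2ap, an H2A gene at chr13:21833026-21833507 on the minus strand, held 52003 UMIs, 48.83% of the total. The linker histone gene Hist1h1c (chr13:23738808-23740367, plus strand) followed with 12252 UMIs (11.50%) and the H2B gene Hist1h2bc (chr13:23684199-23692908, plus strand) with 11926 (11.20%). The other members with at least 1000 UMIs were the H4 gene Hist1h4i (chr13:22040636-22041362, minus strand; 4190 UMIs), Hist3h2a (chr11:58954685-58956830, plus strand; 3473), Hist1h2ae (chr13:23570517-23571220, minus strand; 3037), Hist1h1e (2547), Hist3h2ba (1954), Hist1h1b (1762) and Hist1h2ag (1127).

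After filtering, 1904 to 2816 cells were kept per library, with 14758059 (E18.5) to 35140197 (E13.5) UMIs outside globin genes. Levels are given as CPM, the UMIs of a gene per 1000000 such UMIs, and as each UMI is a captured molecule they were not divided by transcript length. Values for the 4 libraries are listed from E11.5 to E18.5 throughout. Pairs of libraries shared between 8 and 15 cell barcodes. The cells formed limb bud mesenchyme-like, chondrocyte-like, joint-like, muscle-like, endothelium-like, epithelium-like and blood cell clusters, each named from its markers. A cell was called dividing where, thinned to 3000 UMIs, it held at least 5 UMIs of 40 S phase genes or at least 7 UMIs of 49 G2/M genes, and other where it held fewer of both. No histone cluster gene was used in that call. By this rule 2481, 1732, 1447 and 823 cells were dividing at the 4 stages, or 94.5%, 61.5%, 55.7% and 46.3% of those classed, against 144, 1084, 1151 and 954 other cells. The median depth was 9228, 12156, 11311 and 8211 UMIs in dividing cells and 6488, 7945, 8501 and 6384 UMIs in other cells of the same libraries. Within 1 UMI of a threshold lay 1686 of the 9816 classed cells.

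Inside the libraries most tested members were higher in dividing cells, and a few abundant ones were lower there. Of the 60 members, 41 had enough counts to be tested in edgeR's quasi-likelihood test on UMIs summed per library and class, with library as a block and Benjamini-Hochberg adjustment over 13403 genes. In that test 27 members were higher and 4 lower in dividing cells at an adjusted p below 0.05, while 10 passed in neither direction. Among all genes tested, 10.2% were called higher and 6.41% lower. The median log2 fold change was 1.51 over the tested members and -0.04 over all genes tested. The p-values measure only the spread between these 4 libraries. The count of 27 fell to 13 without the E13.5 library, and the count of 4 to 1 without E13.5, 2 without E15.5 and 2 without E18.5. Among the 4, Hist2h3c2 had too few counts to be tested without E13.5 or without E15.5.

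**Figure D1:**
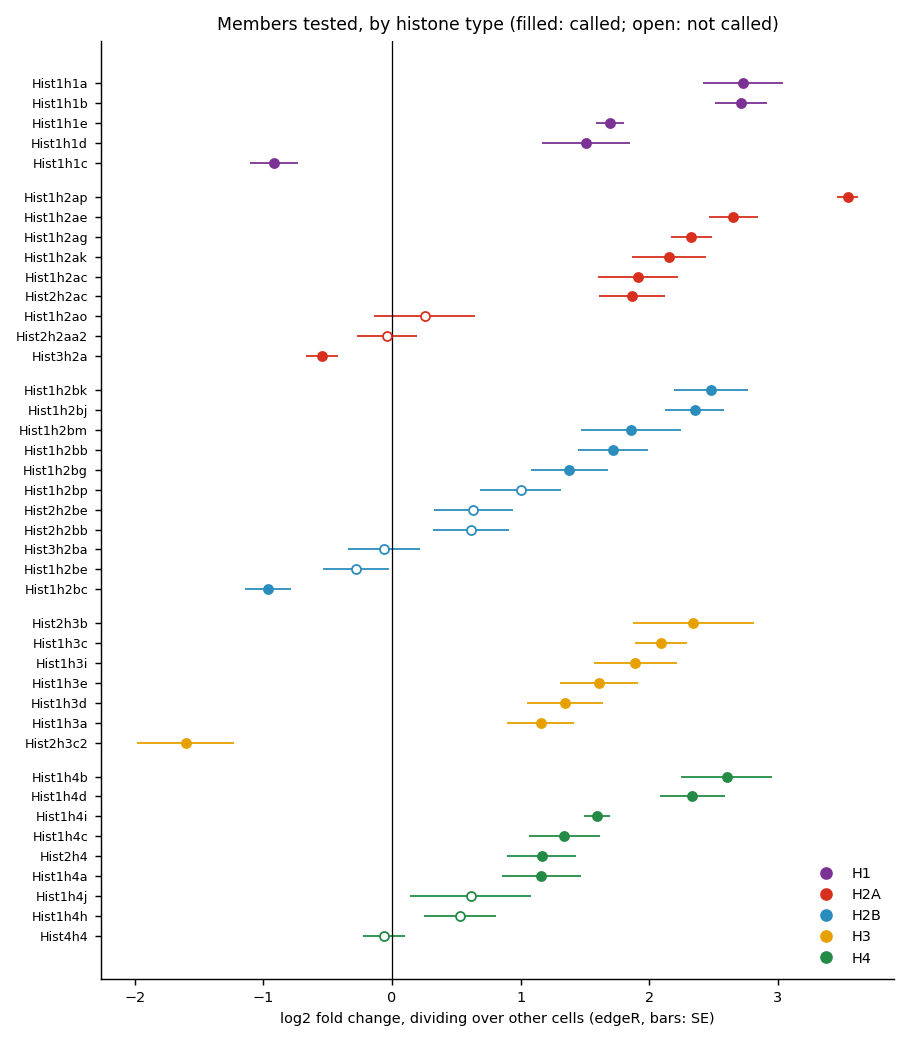
Log2 fold change of dividing over other cells (x axis; bars, SE of the edgeR fit over 4 libraries) for the 41 tested members, grouped and coloured by histone type. Filled points passed the adjusted p of 0.05 and open points did not; 4 filled points lie left of 0, Hist2h3c2, Hist1h2bc, Hist1h1c and Hist3h2a.

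Among H2A genes, 6 of 9 tested members were higher and 1 was lower, with a median log2 fold change of 1.91. Hist1h2ap stood at 114, 1269, 742 and 357 CPM in the dividing cells of the 4 libraries, against 11.9, 108, 57.7 and 31.9 CPM in other cells. The values of dividing cells lay above all 4 values of other cells, narrowly so at E11.5. The fitted difference was 11.6-fold (log2 fold change 3.54, SE 0.084, edgeR adjusted p 4.3e-06). Dividing cells held 96.0% of all Hist1h2ap UMIs, beside 71.4% of the UMIs of all genes.

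Hist1h2ae had 8.10, 60.4, 42.9 and 40.0 CPM in dividing cells at the 4 stages in order and 1.98, 12.6, 7.06 and 3.53 CPM in other cells. It was 6.29-fold higher in dividing cells (log2 fold change 2.65, SE 0.19, edgeR adjusted p 0.00015). Hist1h2ag had 1.85, 21.5, 18.04 and 13.9 CPM in dividing cells and 0, 4.49, 3.31 and 2.94 CPM in other cells, a fitted log2 fold change of 2.33 (SE 0.16). Both genes thus lay higher in the dividing cells of all 4 libraries.

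The H2A gene Hist3h2a went the other way, at 29.3, 25.8, 28.8 and 35.9 CPM in dividing cells and 58.4, 40.7, 41.5 and 38.5 CPM in other cells. Its log2 fold change was -0.54 (SE 0.12, edgeR adjusted p 0.025), lower in dividing cells of 4 of 4 libraries. The gap was widest at E11.5 and narrowest at E18.5. The adjusted p was 0.13 without E13.5 and 0.082 without E15.5, so this call was lost without either library.

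Of the linker histone genes, Hist1h1a, Hist1h1b, Hist1h1d and Hist1h1e were higher in dividing cells and Hist1h1c was lower. Hist1h1b had 12.6, 24.3, 23.5 and 35.8 CPM in dividing cells and 0, 3.78, 3.31 and 6.32 CPM in other cells (log2 fold change 2.71, SE 0.20, edgeR adjusted p 0.00018). For Hist1h1e the values were 11.99, 36.1, 36.8 and 39.6 CPM in dividing cells and 4.95, 12.1, 10.8 and 10.9 CPM in other cells (log2 fold change 1.70, SE 0.11). Hist1h1a reached a log2 fold change of 2.73 (SE 0.31) from levels of at most 8.26 CPM.

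Hist1h1c stood at 42.9, 72.8, 78.8 and 259 CPM in dividing cells, against 151, 103, 138 and 422 CPM in other cells. Other cells were higher in every library, and Hist1h1c was 1.89-fold lower in dividing cells (log2 fold change -0.92, SE 0.18, edgeR adjusted p 0.017). Without the E18.5 library the adjusted p was 0.057, with a log2 fold change of -0.95. Dividing cells held 52.2% of Hist1h1c UMIs, less than their 71.4% of all UMIs.

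Among 11 tested H2B genes, 5 were higher and Hist1h2bc was lower in dividing cells. Hist1h2bc had 22.6, 88.0, 88.0 and 211 CPM in dividing cells and 82.2, 156, 179 and 279 CPM in other cells. It was 1.95-fold lower in dividing cells (log2 fold change -0.96, SE 0.18, edgeR adjusted p 0.013), in 4 of 4 libraries, and the adjusted p was 0.057 without E13.5. Hist1h2bk was the highest of the H2B members, with a log2 fold change of 2.48 (SE 0.29). Hist3h2ba did not pass, at 7.90, 20.1, 16.8 and 29.8 CPM in dividing cells and 13.9, 38.4, 10.5 and 21.0 CPM in other cells (edgeR adjusted p 0.92). Its dividing cells were below the other cells at E11.5 and E13.5 and above them at E15.5 and E18.5.

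**Figure D2:**
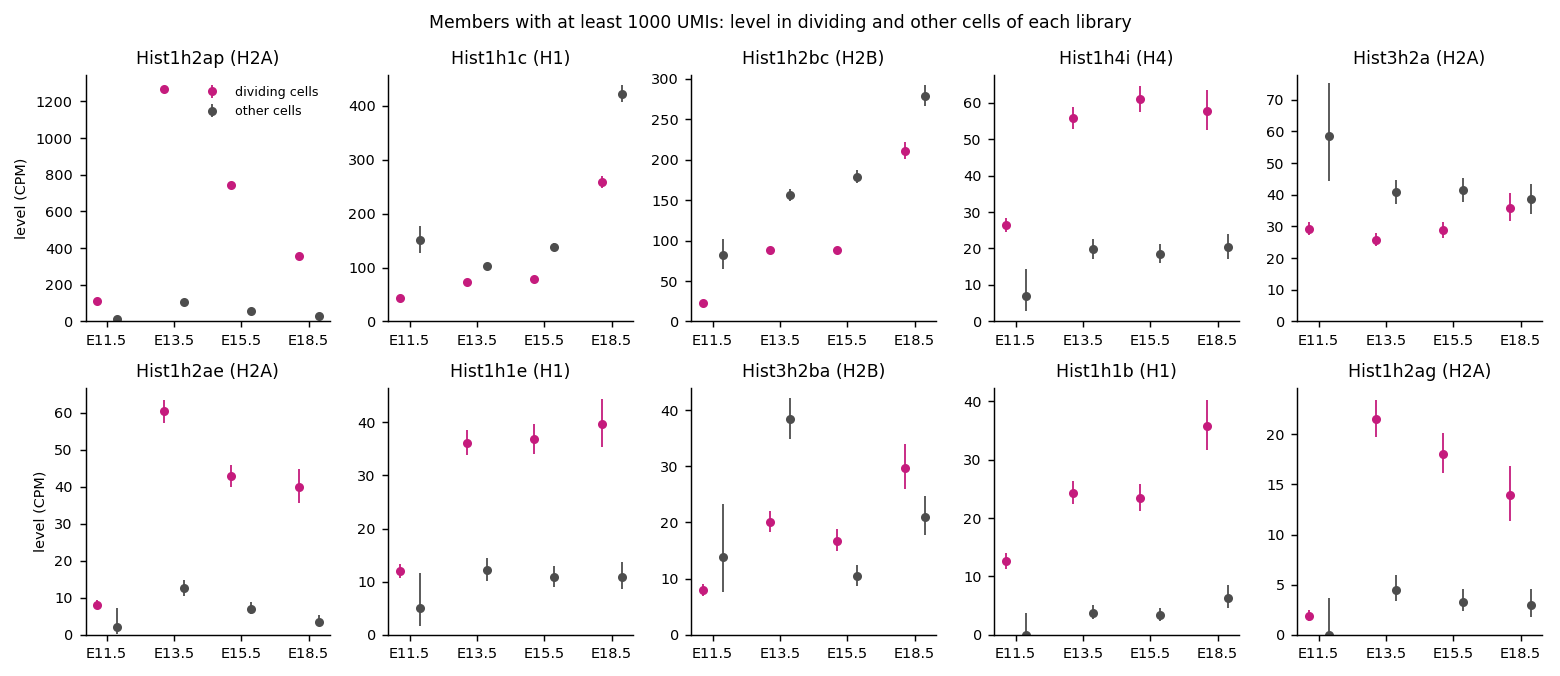
Level in CPM (y axis, a separate linear scale from 0 in each panel) of the 10 members with at least 1000 UMIs in dividing cells (magenta) and other cells (grey) of each library (x axis). Bars are exact Poisson 95% intervals of counting error; Hist1h2ap is at 1269 CPM in dividing cells and 108 CPM in other cells at E13.5, while Hist1h1c and Hist1h2bc are lower in dividing cells at all 4 stages.

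H3 and H4 genes were captured at low levels but mostly followed dividing cells. Of 7 tested H3 members 6 were higher and Hist2h3c2 was lower, and of 9 tested H4 members 6 were higher and 3 passed in neither direction. Hist2h3c2 had 0.50, 0.50, 0.44 and 0.52 CPM in dividing cells and 2.97, 1.08, 1.83 and 1.03 CPM in other cells (log2 fold change -1.60, SE 0.38, edgeR adjusted p 0.030). That call was lost without E11.5 (adjusted p 0.059) and without E18.5 (adjusted p 0.065), and it rests on few UMIs.

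Hist1h4i, the most abundant H4 gene, had 26.3, 55.8, 60.9 and 57.7 CPM in dividing cells and 6.93, 19.8, 18.6 and 20.3 CPM in other cells. The groups did not overlap across the 4 libraries, and the log2 fold change was 1.59 (SE 0.10, edgeR adjusted p 0.00010). Hist1h4b had the highest fold of the H4 genes, at 2.60 (SE 0.35) on the log2 scale, from 0.42, 4.37, 4.06 and 3.15 CPM in dividing cells and 0, 1.17, 0.44 and 0.29 CPM in other cells. The H4 gene on chromosome 6, Hist4h4, had a log2 fold change of -0.06 (SE 0.16) and was not called.

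Summed by type, H2A and H4 were higher in dividing cells at all 4 stages. The H2B sum was lower there at all 4 stages, like its most abundant gene Hist1h2bc. The H1 sum differed in direction between stages, although its most abundant gene, Hist1h1c, was lower in dividing cells of every library. Dividing cells held 2.13, 7.75, 7.01 and 5.49 times the H2A level of other cells at the 4 stages. For H4 the ratios were 2.26, 2.58, 2.66 and 2.24, and for H3 they were 1.18, 3.23, 2.64 and 3.73, of which the E11.5 value has a counting interval of 0.562 to 2.97. H2B stood below 1 throughout, at 0.454, 0.720, 0.693 and 0.884. H1 was at 0.469, 1.20, 0.953 and 0.787, so its direction at E13.5 was opposite to that at E11.5 and E18.5. Without Hist1h1c the other H1 genes had ratios of 6.06, 3.96, 4.07 and 4.50. Without Hist1h2bc the other H2B genes had 1.28, 1.18, 2.26 and 1.88, so both sets were above 1. At E11.5 the other cells held only 5 UMIs of these H1 genes and 18 of these H2B genes. No counting interval was computed for these ratios.

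Inside clusters of like cells, the called members with at least 1000 UMIs lay on the same sides as in the whole libraries. There were 19 combinations of a cluster and a library with at least 30 dividing and 30 other cells. Hist1h2ap was higher in dividing cells in 19 of 19, each with a counting interval above 1, and its ratio ran from 3.13 to 89.6 with a median of 10.5. Hist1h4i, Hist1h1b, Hist1h2ag, Hist1h2ae and Hist1h1e were also higher in 19 of 19, with intervals above 1 in 14, 16, 12, 17 and 15 of them. Hist1h2bc was higher in 2 of 19 and its interval lay below 1 in 12, Hist1h1c was higher in 2 and below 1 in 14, and Hist3h2a was higher in 2 and below 1 in 9. Hist3h2ba was higher in 11 of 19, with no interval above 1 and 4 below 1.

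Single clusters show the size of the contrast. In the chondrocyte-like cluster 0, defined by cartilage genes such as Epyc, Matn1 and Acan, the 515 dividing cells of E13.5 had 1826 CPM of Hist1h2ap and the 207 other cells 168 CPM. For Hist1h2bc the same cells had 98.9 CPM when dividing and 248 CPM otherwise. In the epithelium-like cluster 11 at E18.5, led by epidermal genes such as Krtdap, Krt1 and Krt5, Hist1h1c stood at 532 CPM in 126 dividing cells and at 1119 CPM in 92 other cells. Hist1h2ap in these cells stood at 173 CPM in dividing cells and at 55.3 CPM in other cells.

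Hist1h2ap and Hist1h4i were at their highest in cells above both thresholds. Hist1h2ap reached 142, 2295, 1399 and 710 CPM at the 4 stages in cells above both thresholds. In cells above the S threshold only it had 40.1, 544, 219 and 95.7 CPM, and in cells above the G2/M threshold only 46.5, 502, 248 and 155 CPM. The level above both thresholds was between 3.06 and 7.41 times the level in either single class. Hist1h4i was also highest there, but its level in cells above G2/M only lay closer to it at the 3 later stages. It had 30.4, 89.9, 92.7 and 93.0 CPM above both thresholds, 15.99, 17.6, 18.9 and 21.8 CPM above S only, and 17.0, 68.9, 61.5 and 53.9 CPM above G2/M only. Cells above both thresholds could include doublets, whose part in these values was not tested.

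**Figure D3:**
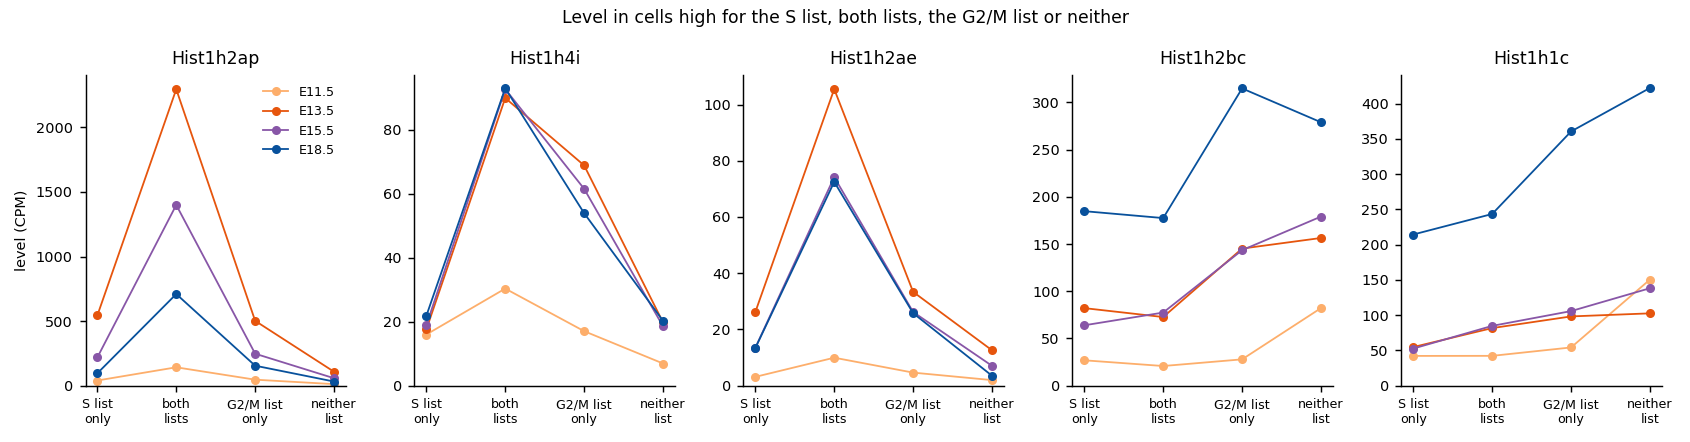
Level in CPM (y axis, a separate linear scale in each panel) of 5 members in cells above the S threshold only, both thresholds, the G2/M threshold only or neither (x axis), with a line for each library. Hist1h2ap, Hist1h4i and Hist1h2ae peak in cells above both thresholds in all 4 libraries, and Hist1h1c and Hist1h2bc do so in none.

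Between the single classes, no tested member was called higher in S cells. S cells here are those above the S threshold only, and G2/M cells those above the G2/M threshold only. Cells above both thresholds, where Hist1h2ap and Hist1h4i were highest, were not in this contrast. Of 20 members that could be tested for S over G2/M cells, 0 were higher and 9 were lower by edgeR's quasi-likelihood test over 11301 genes. At an unadjusted p below 0.05 there were 0 higher and 13 lower, and DESeq2 also called 0 higher. Among all genes tested, 6.29% were called higher and 7.16% lower. The median log2 fold change was -0.71 over the tested members and 0.00 over all genes. The count of 9 became 4 without E13.5 and 5 without E15.5, and the 40 members with too few counts were not tested.

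The lowest was the H3 gene Hist1h3c, at 0.82, 4.88, 1.64 and 3.17 CPM in S cells and 2.32, 14.9, 10.3 and 5.86 CPM in G2/M cells (log2 fold change -1.76, SE 0.31, edgeR adjusted p 0.0041). Hist1h4i followed with a log2 fold change of -1.45 (SE 0.22, adjusted p 0.0021) and Hist1h2ag with -1.41 (SE 0.22, adjusted p 0.0021). Each of these was lower in S cells of 4 of 4 libraries, although the calls of Hist1h3c and Hist1h2ag were lost without E13.5 (edgeR adjusted p 0.051 and 0.052).

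The other called members were Hist1h4d (-0.93), Hist1h2bc (-0.79), Hist1h1c (-0.77), Hist3h2a (-0.73), Hist1h2ae (-0.68) and Hist1h1e (-0.66 on the log2 scale). Those of Hist1h4d and Hist1h1e were lost without E13.5, without E15.5 and without E18.5, that of Hist1h2ae without E13.5 and without E15.5, and that of Hist3h2a without E15.5 (edgeR adjusted p between 0.052 and 0.28). Hist1h2bc had 26.9, 82.1, 63.9 and 185 CPM in S cells and 27.9, 145, 144 and 315 CPM in G2/M cells. Hist1h1c had 42.2, 54.8, 52.6 and 214 CPM in S cells and 54.2, 98.2, 106 and 361 CPM in G2/M cells. Both were lower in S cells in every library, by little at E11.5 for Hist1h2bc. Hist1h2ap did not pass, with a log2 fold change of -0.22 (SE 0.12, edgeR adjusted p 0.26), higher in S cells at E13.5 and lower at the other 3 stages.

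Genes that make, process and place histones were followed beside the members. Among all genes tested, 10.2% were higher and 6.41% lower in dividing cells, with a median log2 fold change of -0.04. For S over G2/M cells 6.29% were higher and 7.16% lower, with a median of 0.00. The 11 genes listed as replication-independent histone genes are known to be expressed outside S phase, most of them with ordinary poly(A) tails. Of these, 9 were higher in dividing cells by edgeR and 2 passed in neither direction, with a median log2 fold change of 0.71. The highest were Cenpa, the centromeric H3 variant (2.54), H2afx, the variant phosphorylated at DNA breaks (2.04), and H2afz (1.55), and the lowest called were H3f3b (0.19), H1f0 (0.40) and H2afy2 (0.52). For S over G2/M cells 6 were lower and 1, H2afy2 (0.41), was higher. Cenpa was at -4.31, H2afx at -2.39 and H1fx at -1.17 on the log2 scale.

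Of 23 tested genes of histone mRNA transcription and 3' end processing, 11 were higher in dividing cells and 12 passed in neither direction, with a median log2 fold change of 0.42. Zfp473, a zinc finger protein of the U7 processing machinery, had 1.76, Eri1, an exonuclease that trims histone mRNA ends, 0.93 and Slbp, the stem-loop binding protein, 0.77. Snrpb, Cpsf2 and Snrpe were the lowest called, between 0.42 and 0.47. For S over G2/M cells 3 of 22 were higher: Slbp (1.19, SE 0.13, edgeR adjusted p 0.00016), Casp8ap2 (1.10) and Eri1 (0.49). Slbp was thus on the S side, where none of the 20 tested members was called. No gene of these 3 lists was among the S phase and G2/M genes that set the classes. Slbp, Casp8ap2, Nasp, Chaf1b, Cenpa, Anp32e and Hjurp had stood on the S phase or G2/M lists and were taken out before classing. As former list genes their sides could be foreseen, so these sides are not an independent result.

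Of 26 histone chaperone and pre-assembly acetylation genes, 18 were higher in dividing cells and 8 passed in neither direction, with a median log2 fold change of 0.57. Asf1b, which carries H3 and H4, had 3.66 and Mms22l 2.24, while Atrx (0.27), Nap1l4 (0.35) and Asf1a (0.43) were the lowest called. For S over G2/M cells 7 were higher and 3 lower. Chaf1b (2.33) and Chaf1a (1.09), subunits of the chromatin assembly factor that works at replication forks, and Mms22l (1.06) led the S side, and Anp32e (-0.91) and Hjurp (-0.85) were on the G2/M side.

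The summed level of the members ran from 235 to 1885 CPM over the 28 clusters of at least 50 cells, and different genes made up the sum. The epithelium-like cluster 11, of which 231 of 271 cells came from E18.5, had 1885 CPM, of which Hist1h1c made 597 CPM, Hist1h2bc 529 CPM and Hist1h2ap 228 CPM. The chondrocyte-like cluster 0 followed with 1710 CPM, 1174 CPM of it from Hist1h2ap. Next came the unnamed cluster 20, led by Nkg7, Cd3g and Ptprcap, with 1563 CPM.

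The 3 lowest clusters held cells of E11.5, with 1 cell from another library. The endothelium-like cluster 8 had 235 CPM, the unnamed cluster 3, led by Tbx18, Mab21l2 and Shox2, 303 CPM and the limb bud mesenchyme-like cluster 5 had 319 CPM, although 88.5%, 93.7% and 96.1% of their cells were dividing. Stage and cluster cannot be told apart there. These sums were not adjusted for transcript length, and short transcripts were undersampled at E11.5, as described below. The part of this undersampling in the low sums was not tested.

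In the 2 clusters with the fewest dividing cells Hist1h2bc and Hist1h1c were above Hist1h2ap, but this order did not hold in every cluster with few dividing cells. In the hypertrophic chondrocyte-like cluster 25, where 1.3% of cells were dividing, Hist1h2bc stood at 372 CPM, Hist1h1c at 298 CPM and Hist1h2ap at 29.7 CPM. In the neutrophil-like cluster 27, with 53 cells of E18.5, Hist1h2bc was at 402 CPM, Hist1h1c at 315 CPM and Hist1h2ap at 3.5 CPM, beside 200 CPM of Hist1h2ap in the whole E18.5 library. In the muscle-like cluster 16, next in order with 25.6% dividing cells, Hist1h2ap stood at 314 CPM, Hist1h1c at 60.9 CPM and Hist1h2bc at 54.5 CPM. These 3 clusters were picked out after their values were seen, and the clusters were formed on the same cells, so their levels are a description.

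**Figure D4:**
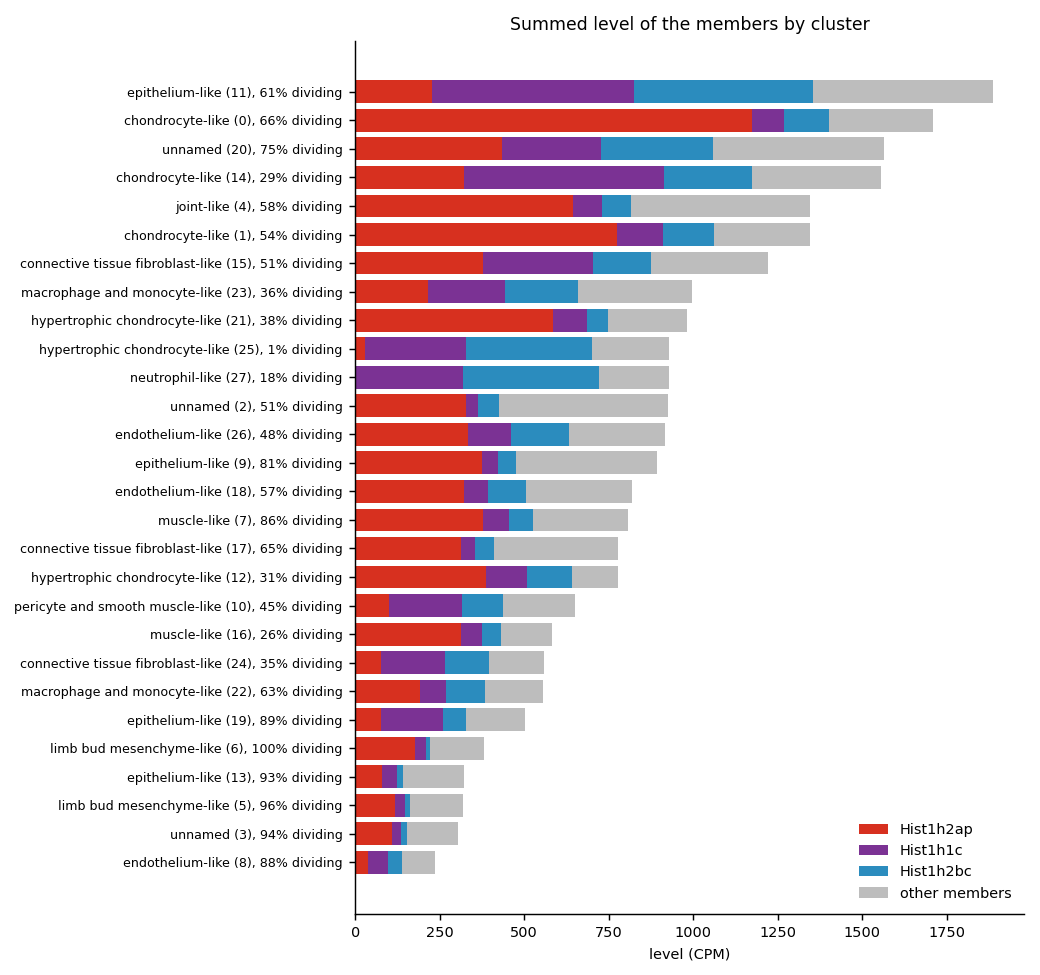
Summed CPM of the 60 members (x axis) in each of the 28 clusters of at least 50 cells, split into Hist1h2ap (red), Hist1h1c (purple), Hist1h2bc (blue) and the other members (grey), with the share of dividing cells in the label. Cluster 0 is mostly Hist1h2ap, whereas clusters 11, 25 and 27 are mostly Hist1h1c and Hist1h2bc.

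The level in a whole library mixes the share of dividing cells with the level in each class. The members summed to 328, 1453, 992 and 1093 CPM at the 4 stages, and without Hist1h2ap to 219, 552, 514 and 893 CPM. H2A was highest at E13.5, with 1030 CPM against 155, 579 and 295 CPM at the other stages. H1 and H2B were highest at E18.5, where H1 had 391 CPM beside 76.1, 138 and 151 CPM at the 3 earlier stages and H2B 296 CPM beside 47.6, 170 and 164 CPM. H3 ran at 8.1, 34.3, 24.0 and 24.2 CPM and H4 at 41.6, 80.1, 73.6 and 87.2 CPM.

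Short transcripts were undersampled at E11.5, and histone transcripts are short. For E13.5 over E11.5 the median log2 ratio of CPM was -0.55 over all genes, but it was 2.03 over the 200 genes nearest to Hist1h2ap in transcript length. Stage ratios of the members were therefore divided by the median ratio of the 200 genes nearest in longest annotated transcript. A member counts as higher or lower below where this centred ratio is at least 2-fold, its exact 95% counting interval lies on 1 side of 1 and the pair holds at least 20 UMIs. This is a rule of size and not a test.

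**Figure D5:**
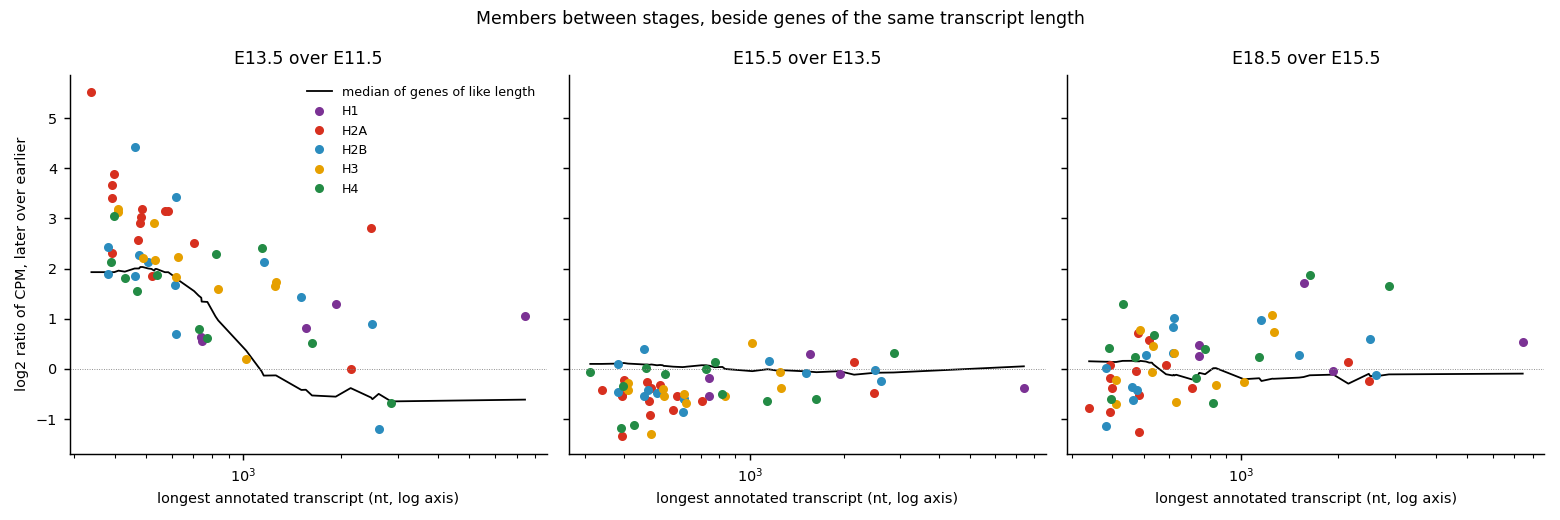
Log2 ratio of CPM (y axis) of each member for E13.5 over E11.5, E15.5 over E13.5 and E18.5 over E15.5 against its longest annotated transcript in nt (x axis, log scale), coloured by histone type. The black line is the median of the genes of like length, which falls by over 2 log2 units from the shortest to the longest transcripts for E13.5 over E11.5 and is nearly flat for E15.5 over E13.5.

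For E13.5 over E11.5, 22 of 55 members in the comparison were higher and 1 was lower, where 16.9% of all genes were higher and 10.2% lower. The median centred log2 ratio of the members was 0.88 beside 0.00 for all genes. Uncentred CPM gave 43 higher and 1 lower, beside 12.8% and 26.1% of all genes. The highest centred log2 ratios were those of Hist1h2al (3.60, with 1 UMI at E11.5 and an interval of 1.06 to 8.92), Hist1h2ac (3.39), Hist1h4d (2.45), Hist1h2bc (2.27) and Hist1h2af (1.95), and Hist1h2bp was lower (-1.11), although its uncentred log2 ratio was 0.69. Hist1h2bc stood at 110 CPM at E13.5 and 24.9 CPM at E11.5. Hist1h2ap had 901 CPM at E13.5 and 109.8 CPM at E11.5, and after centring it was 2.005-fold higher, at the limit of the size rule. Within other cells alone, of which E11.5 held 144, 2 of 23 members were higher, beside 1519 of 12215 genes.

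For E15.5 over E13.5, 0 of 56 members were higher and 5 lower, beside 4.07% and 0.882% of all genes, with a median of -0.50. The lower members were Hist1h2ai (-1.45), Hist2h3b (-1.38), Hist1h4f (-1.28), Hist1h4n (-1.21) and Hist1h2ap, whose 2.001-fold lower value lies at the limit of the size rule. Uncentred CPM gave 0 higher and 3 lower, beside 3.86% and 0.975% of all genes. Hist1h2ap had 478 CPM at E15.5 and 901 CPM at E13.5. In dividing cells alone its centred log2 ratio was -0.84, short of the 2-fold size.

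For E18.5 over E15.5, 6 of 54 members were higher and 2 lower, beside 13.6% and 6.36% of all genes, with a median of 0.11. Hist2h4 (2.01), Hist1h1c (1.88), Hist4h4 (1.76), Hist1h3d (1.27) and Hist1h2bc (1.22) were the 5 highest, followed by Hist1h2bp (1.14), and Hist1h2ap (-1.41) and Hist1h2bn (-1.28) were lower. Uncentred CPM gave 5 higher and 1 lower, beside 11.8% and 8.25% of all genes. Hist1h1c stood at 334 CPM at E18.5 and 102 CPM at E15.5. Its centred log2 ratio was 1.92 within dividing cells and 1.86 within other cells, so the difference was present in both classes.

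Over the whole interval, E18.5 over E11.5, 15 of 46 members were higher and 3 lower, beside 22.7% and 12.8% of all genes, with a median of 0.23. Hist1h2bc (3.52, or 11.5-fold), Hist1h1c (3.37, or 10.3-fold), Hist1h3d (2.95), Hist1h2ac (2.88) and Hist2h4 (2.49) were highest. Hist1h2bj (-1.35), Hist1h2ap (-1.22) and Hist1h1a (-1.17) were lower after centring, while the uncentred log2 ratios of CPM were 0.71, 0.86 and 0.37, so the direction of all 3 turned with the centring. Uncentred CPM gave 36 higher and 1 lower, beside 16.5% and 35.1% of all genes. In dividing cells alone Hist1h2bc and Hist1h1c stayed past the size rule at 3.48 and 3.17, whereas Hist1h2ap was at -0.14.

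Transcript features were set beside the class difference as a description. Of 21 members with a stem-loop and at most 150 nt after it, 13 were tested, 10 were higher in dividing cells and 3 passed in neither direction, with a median log2 fold change of 1.87. Of 19 with a stem-loop and over 150 nt after it, 18 were tested, 11 were higher and 3 lower, with a median of 1.34. The 3 were Hist1h1c, Hist3h2a and Hist2h3c2. Of 16 with no stem-loop found and a 3' UTR of at most 150 nt or none, 7 were tested and 5 were higher. This group takes in members without an annotated 3' UTR to search, such as Hist1h1b, so it is not shown to lack the stem-loop. The 2 with no stem-loop and a longer 3' UTR were Hist1h2bc, lower in dividing cells, and Hist2h2be, which was not called.

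Promoters were searched because so many members were higher in the same cells. RefSeq promoters on GRCm38.p6, 250 bases before to 50 after the start, were matched by symbol for 53 members, not including Hist1h2ap and Hist1h2bc. Of these windows 12 overlap that of another member, an H2A gene with an H2B gene on the opposite strand, by 252 to 279 bases. Matches in such windows can be counted under both types. The window matched to Hist2h2aa2 (chr3:96240325-96240624, minus strand) lies apart from its GENCODE position (chr3:96245497-96246082, plus strand). CCAAT on either strand was present in 44 of 53, in all 41 of the H1, H2A, H2B and H3 genes and in 3 of the 12 H4 genes, where 37.41% of 32851 promoters hold it. TATAAA was present in 31 of 53 (13.62% of all promoters). ATTTGCA, the core of the octamer bound by POU factors and known from H2B promoters, was present in 5 of 14 H2A and 5 of 13 H2B promoters and in no H1, H3 or H4 promoter (4.02% of all promoters). A match is a run of letters and not a shown binding site.

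The promoters of Hist1h2ae (chr13:23571171-23571470) and Hist1h4i (chr13:22041313-22041612), both on the minus strand and read 5' to 3', show this split between H2A and H4 genes. Capitals mark matches to these motifs, and a match on the opposite strand stands as its reverse complement.
Hist1h2ae: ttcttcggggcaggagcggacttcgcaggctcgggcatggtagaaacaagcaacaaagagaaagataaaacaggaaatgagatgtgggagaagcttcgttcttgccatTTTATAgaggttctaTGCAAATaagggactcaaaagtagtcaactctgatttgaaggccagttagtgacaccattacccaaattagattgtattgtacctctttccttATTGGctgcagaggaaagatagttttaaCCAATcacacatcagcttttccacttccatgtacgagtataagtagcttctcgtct
Hist1h4i: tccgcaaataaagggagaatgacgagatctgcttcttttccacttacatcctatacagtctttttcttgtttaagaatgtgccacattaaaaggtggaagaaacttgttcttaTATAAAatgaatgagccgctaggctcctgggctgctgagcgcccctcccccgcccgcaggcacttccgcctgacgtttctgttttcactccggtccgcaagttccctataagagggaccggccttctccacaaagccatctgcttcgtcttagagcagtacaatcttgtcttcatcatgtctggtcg
Hist1h2ae holds matches to all 3 motifs, with that to TATAAA on the opposite strand, and Hist1h4i holds a match to TATAAA alone. Matches were counted on either strand and at any position in the window, so TATAAA here is not a shown TATA box. The Hist1h2ae window shares 279 bases with that of the H2B gene Hist1h2bg on the opposite strand, so its motifs, ATTTGCA included, are counted under both types.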

How the data were processed

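Gene expression was measured in 4 droplet single-cell libraries. The deposited values are raw UMI counts per gene and barcode, which the authors made with Cell Ranger on build mm10, per the submitters' processing notes. Seurat 2.3.4 is also named there; no version of Cell Ranger is. Kept were 9958 of 10272 barcodes, those with 200 genes or more and a mitochondrial share of 10% or less. Library totals were 26992279, 35140197, 29722387 and 14758059 UMIs from E11.5 to E18.5. Transcripts and lengths came from GENCODE vM21. Scrublet called 42 cells (0.422%), too few for a working call, so doublets are treated as present. Clusters came from scanpy 1.11.5 and Leiden clustering at resolution 1.0 (leidenalg 0.10.2), with 2000 variable genes, 30 components and 15 neighbours, and "like" names from 16 marker lists.

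To class cells, each was thinned to 3000 UMIs, and thresholds were set by Otsu's method on pooled log2(UMIs + 1); 142 shallower cells were left out. Counts were summed per library and class and tested in edgeR 4.0.16 (R 4.3.3) with Benjamini-Hochberg adjustment, and list genes were left out. SE is the absolute log2 fold change over the root of F. The library is the pairing, since both classes come from the same pool of cells, and it enters as a block. The script was tested on simulated data. Intervals are exact Poisson or conditional binomial 95% and cover counting error only.

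Members and lists were chosen with earlier results of these data known. Named are members with at least 1000 UMIs, the 5 highest and 5 lowest called per contrast or stage pair, the 3 highest and 3 lowest called of each pathway list, and the 3 highest and 3 lowest clusters; an item of the chaperone list is not reported here. Alternatives were DESeq2 1.42.0, other normalizations, filters, class rules, length windows and each library left out; the stage ratios in other cells only were added after seeing the data.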

Additional observations from a re-analysis of the deposited data

Results flagged for a closer look

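For 3 summed or single levels, libraries lay on opposite sides of 1 in the ratio of dividing over other cells, with counting intervals that exclude 1 in at least 1 library on each side. Whether the libraries differ in these ratios was not tested. The members summed without Hist1h2ap had ratios of 0.6216, 1.294, 1.147 and 1.0411 from the earliest to the latest stage. Summed H1 genes had 0.4686, 1.202, 0.9529 and 0.7873 in the same order, whereas without Hist1h1c they had 6.06, 3.96, 4.07 and 4.50. The value of 6.06 rests on 5 UMIs in other cells of E11.5. Hist3h2ba had 0.57, 0.524, 1.605 and 1.4169, and of these only the interval at E11.5, 0.3321 to 1.0611, includes 1. The other cells of E11.5 were 144, against 954 to 1151 in the later libraries.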

How the results depend on the processing

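The members called higher in dividing cells (27) numbered 13 to 34 with each library left out, and those called lower (4) numbered 1 to 3; with classes cut as equal parts of each library in place of thresholds, 2 were lower. Members lower in S than in G2/M cells (9) numbered 4 to 11 with each library left out and 14 with no filter on low counts. Without the library block, edgeR called 0 members higher and 0 lower in dividing cells and 0 lower in S cells (15, 2 and 2 at an unadjusted p below 0.05). The log2 fold change of Hist3h2ba, not called, ran from -0.35 to 0.33 with each library left out, above 0 without E11.5 or E13.5, and turned to 0.0413 with scanpy phases, 0.0636 with equal parts and 0.10 when thinned to 2000 UMIs. The S over G2/M value of Hist1h2ap, not called, turned to 0.0538 with scanpy phases and 0.13 with equal parts. Among single members 299 alternatives kept direction and side of the threshold, 56 lost the call, 6 gained it and 7 turned sign.

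Stage counts moved with the centring, and so did those of all genes. For E13.5 over E11.5, 2944 of 15089 genes were higher with the median of all genes and 2899 with the shortest transcript. In other cells 1519 of 12215 genes were higher. For E18.5 over E11.5 the counts of genes were 3617 and 3596 of 14814, and 2142 of 11702 in other cells. For E13.5 over E11.5 the 22 higher members became 43 with CPM, 51 with the median of all genes, 51 with the shortest transcript and 2 in other cells only, and the 1 lower became 2 with at least 50 UMIs and 0 with the median of all genes, 500 nearest genes, the shortest transcript, dividing cells or other cells. For E15.5 over E13.5 the 5 lower became 3 with CPM, the median of all genes, the shortest transcript, dividing cells or at least 50 UMIs, and 2 in other cells. For E18.5 over E15.5 the 2 lower became 0 in other cells and 1 with CPM, the median of all genes, 500 nearest genes, the shortest transcript, dividing cells or at least 50 UMIs. For E18.5 over E11.5 the 15 higher became 36, 42, 43 and 5 with CPM, the median of all genes, the shortest transcript and other cells, and the 3 lower became 0 with the median of all genes, 500 nearest genes or dividing cells and 1 with CPM, the shortest transcript or other cells. Per 1000000 UMIs of genes under 1000 nt, the summed level was 3841, 6500, 4282 and 4447 at the 4 stages, and on that basis the members without Hist1h2ap summed to 2557, 2468, 2220 and 3634. These sums hold members of any length, so they do not compare genes of like length. At E11.5 Hist1h1c (1560 nt) and Hist3h2a (2146 nt) held 1268 and 820 of the 5902 member UMIs outside Hist1h2ap. Per 1000000 UMIs of all genes outside globin, the members without Hist1h2ap summed to 219, 552, 514 and 893 CPM. The cause of each change was not tested. Members with few UMIs are limited by depth.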
